A study of Mus musculus with 4 samples.

Results

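The antigen presentation genes are 10 rows of the deposited table, taken by gene symbol from the 24388 symbols kept. They code for the heavy chains of MHC class I (H2-K1, H2-D1 and H2-T23), their light chain (B2m), the peptide transporter (Tap1 and Tap2), the loading factor tapasin (Tapbp), catalytic subunits of the immunoproteasome (Psmb8 and Psmb9) and the invariant chain of MHC class II (Cd74). RNA had been sequenced from testis cell suspensions of C57BL/6 mice labelled as spermatocytes, as 2 libraries of the control genotype and 2 of the Np95 knockout. Np95 is the protein of the gene Uhrf1 and is needed to copy DNA methylation onto newly replicated strands. The age label is 21 dpc in both groups. The abbreviation is not spelled out, and its unit could not be checked, so the age of the mice is uncertain. The column headers mark the knockout as cKO, and the promoter or Cre driver of the deletion is not given in the sources used here. Per the labels' protocols, cut tubules were digested with accutase and strained, with no sorting step described. Whether replicates are separate animals is not stated, so every p-value below rests on the variation among these 4 libraries, which may be technical.

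MHC class I molecules show peptides from inside the cell to cytotoxic T cells. The proteasome cuts the peptides, the TAP transporter carries them into the endoplasmic reticulum, and tapasin with its partners loads them onto a heavy chain bound to beta-2 microglobulin. Interferons raise the whole set through IRF1 and the transactivator NLRC5, and they replace catalytic proteasome subunits with the immunoproteasome forms. Class II molecules, guided by CD74 and controlled by CIITA, belong mainly to professional antigen-presenting cells. Male germ cells are known for low class I levels in the testis, an immune-privileged organ.

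Values are RPKM per kilobase of gene span, introns included, so they can be compared between libraries but depend on intron content between genes. For B2m the span is 5396 bases and the exons cover 860 of them. The smallest steps between low values corresponded to totals of about 11650000 and 25650000 in control replicates 1 and 2 and 22250000 and 9640000 in knockout replicates 1 and 2. Steps 2 times as large also accounted for 39.2% to 46.5% of low values against 49.3% to 58.7%, so these totals and the step counts given below may be too high by a factor of 2. Uhrf1 itself was 3.11 and 3.29 RPKM in the controls and 1.87 and 1.48 in the knockouts, a log2 fold change of -0.65 (limma adjusted p = 0.0031). The value covers the whole gene, so it does not measure the loss of the deleted part. Among the 9099 genes that reached 1 RPKM in at least 2 libraries, 43.3% were called higher and 30.5% lower in the knockout at a limma adjusted p under 0.05. The median log2 fold change of all tested genes was 0.14. Higher genes made up 58.7% of the calls as deposited, 77.3% after scaling to equal sums (median 0.46) and 46.3% with equal medians (median -0.05).

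The class I heavy chains and their light chain rose in the knockout, while tapasin did not pass the test and the remaining members stayed at low levels. Of the 10 members, 5 passed the filter, and 4 of these were called higher and 0 lower, beside 43.3% and 30.5% of tested genes. One of the 4, H2-T23, was below 1 RPKM in both controls and reached the filter in the knockouts alone. Without a filter 7 of the 10 were called higher, 0 lower and 3 were not called, beside 27.8% higher and 12.8% lower among 24388 genes. The median log2 fold change of the 10 was then 0.34, against 0.01 for all genes. Both knockout libraries lay above both controls for 9 of the 10 members, as they did for 46.1% of all genes.

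H2-K1, a classical heavy chain, measured 34.5 and 37.7 RPKM in control replicates 1 and 2 and 70.6 and 67.7 RPKM in knockout replicates 1 and 2. The groups lay far apart relative to their spread, 36.1 ± 2.27 against 69.2 ± 2.06 (SD, n = 2 each), a 1.92-fold rise. On the log2 scale the rise was 0.92 (SE 0.11) with a limma adjusted p of 0.0018. Over 14 alternative ways of processing it ranged from 0.73 to 1.65, the latter with quantile normalization. H2-D1, the other classical heavy chain, measured 7.54 and 7.15 RPKM in the controls and 18.5 and 18.9 in the knockouts. That was a 2.54-fold rise with no overlap, and the log2 fold change was 1.24 (SE 0.086) with a limma adjusted p of 0.0014. H2-T23 codes for Qa-1, a nonclassical class I molecule that presents signal peptides to natural killer cell receptors. Its RPKM was 0.507 and 0.755 in the controls and 2.38 and 2.17 in the knockouts, 3.61-fold higher. The log2 fold change was 1.01 (SE 0.10) with a limma adjusted p of 0.0015. Over 13 alternatives it ranged from 0.72 to 1.72, the latter with a pseudocount of 0.1. B2m, the light chain shared by all class I molecules, measured 3.15 and 2.79 RPKM in the controls and 6.52 and 7.24 in the knockouts. The groups did not overlap, and the 2.32-fold rise was 0.99 on the log2 scale (SE 0.095), with a limma adjusted p of 0.0014.

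In these bulk suspensions fewer cells of a type and less RNA per cell cannot be told apart. Among tested genes, 5.59% had a larger log2 fold change than H2-D1, 11.1% than B2m and 13.1% than H2-K1, with H2-T23 between H2-D1 and B2m. Heavy chain genes are close relatives, so reads of 50 bases can be shared. Of the distinct 50-base stretches in the annotated transcripts, 9.63% of those of H2-K1 also occurred in another gene, 12.8% of those of H2-D1 and 14.5% of those of H2-T23. For B2m the share was 0.0%. How the authors treated such reads is not given in the sources used here, so the split of reads between heavy chain genes is uncertain.

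**Figure D1:**
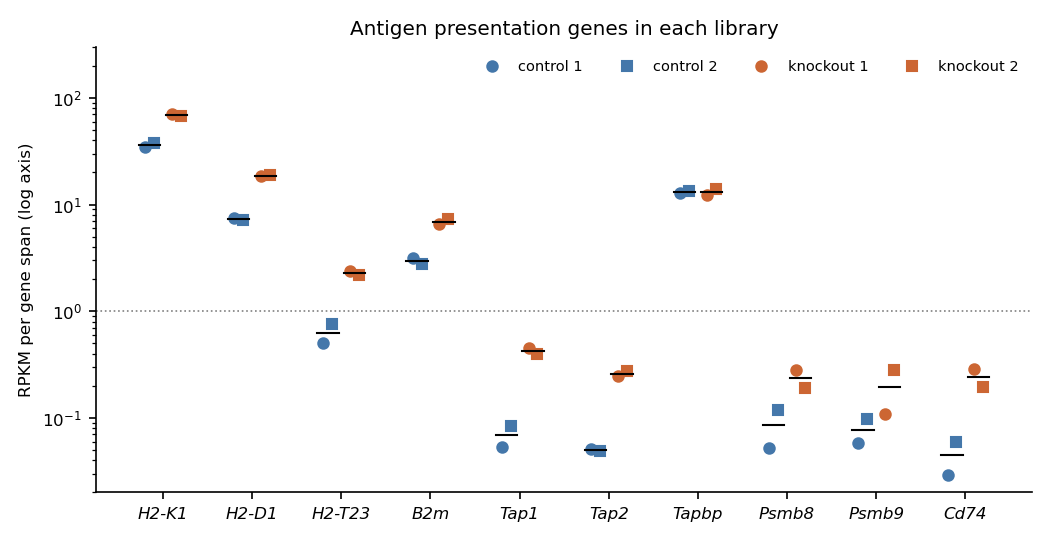
RPKM per gene span (log axis) of the 10 antigen presentation genes in each library, with controls in blue, knockouts in orange, circles for replicate 1, squares for replicate 2 and bars for group means. The knockout points lie above the control points for every gene shown but Tapbp, and the dotted line marks the filter at 1 RPKM, above which both knockout libraries of H2-K1, H2-D1, H2-T23, B2m and Tapbp sit.

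Class I promoters are known for a kappaB site, an interferon-stimulated response element (ISRE) and a set of X and Y boxes. The sequences just before the gene start are shown because they hold these known elements in some members. No library here measured binding or methylation at them. Each is the 250 bases before the start from RefSeq on GRCm38.p6, written 5′ to 3′ in the gene's direction, with kappaB and ISRE matches in capitals. The windows are chr17:34000348-34000597, minus strand (H2-K1), chr17:35262844-35263093, plus strand (H2-D1), chr2:122147437-122147686, plus strand (B2m), chr17:36032702-36032951, minus strand (H2-T23), chr17:33919228-33919477, plus strand (Tapbp) and chr17:34187306-34187555, plus strand (Tap1).
H2-K1: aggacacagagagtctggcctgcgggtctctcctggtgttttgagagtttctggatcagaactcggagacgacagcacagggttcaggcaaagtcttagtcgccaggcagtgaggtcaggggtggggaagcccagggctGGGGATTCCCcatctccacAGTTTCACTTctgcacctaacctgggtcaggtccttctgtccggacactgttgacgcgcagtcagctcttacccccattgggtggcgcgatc
H2-D1: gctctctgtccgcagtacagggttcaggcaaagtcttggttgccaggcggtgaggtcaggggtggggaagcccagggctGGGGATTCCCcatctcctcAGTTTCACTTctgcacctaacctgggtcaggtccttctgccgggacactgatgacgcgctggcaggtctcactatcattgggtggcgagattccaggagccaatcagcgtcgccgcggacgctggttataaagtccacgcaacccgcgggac
B2m: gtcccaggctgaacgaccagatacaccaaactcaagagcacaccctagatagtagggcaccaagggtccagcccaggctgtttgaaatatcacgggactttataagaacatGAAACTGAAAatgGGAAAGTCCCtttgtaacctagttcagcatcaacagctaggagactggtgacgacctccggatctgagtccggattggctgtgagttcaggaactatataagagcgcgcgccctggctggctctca
H2-T23: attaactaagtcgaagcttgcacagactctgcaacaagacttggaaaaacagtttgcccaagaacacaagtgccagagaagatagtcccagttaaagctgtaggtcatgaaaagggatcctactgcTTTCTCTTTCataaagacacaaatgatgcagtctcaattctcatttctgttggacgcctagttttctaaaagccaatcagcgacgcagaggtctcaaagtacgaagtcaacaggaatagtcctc
Tapbp: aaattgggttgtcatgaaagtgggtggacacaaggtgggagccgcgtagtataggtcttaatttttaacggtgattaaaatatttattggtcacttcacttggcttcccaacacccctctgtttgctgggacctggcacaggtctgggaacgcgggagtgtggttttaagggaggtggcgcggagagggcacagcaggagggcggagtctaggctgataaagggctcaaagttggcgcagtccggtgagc
Tap1: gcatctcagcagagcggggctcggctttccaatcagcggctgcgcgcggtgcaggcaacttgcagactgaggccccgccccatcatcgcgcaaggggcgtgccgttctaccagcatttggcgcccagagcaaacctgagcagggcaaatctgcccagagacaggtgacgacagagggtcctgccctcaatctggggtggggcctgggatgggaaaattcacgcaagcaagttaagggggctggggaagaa

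The letters searched, on both strands, were read from the members themselves. GGGNNTTNCC is what the kappaB stretches of H2-K1 and B2m share, GAAANNGAAA what the ISRE stretches of B2m and H2-T23 share, and AGTTTCACTT is common to H2-K1 and H2-D1. These 4 genes therefore match by construction, and the split between them and the members without a match is circular and no evidence about their calls. The other letters searched were also chosen after the promoters had been read. In H2-K1 and H2-D1 the same pair stood in the same order, the kappaB stretch GGGGATTCCC followed by the ISRE stretch AGTTTCACTT. In B2m an ISRE match GAAACTGAAA preceded a kappaB match GGGACTTTCC on the other strand. H2-T23 held an ISRE match GAAAGAGAAA on the other strand and no kappaB match. Tapbp, Tap1, Psmb8 and Psmb9 held neither in these windows, which says nothing about sites elsewhere. Tap2 and Cd74 were not searched. Of 27025 promoter windows of the same length, 4.0% held the kappaB letters, 3.16% either ISRE form and 0.17% both. Over 190 aligned bases the H2-K1 and H2-D1 windows were 87.4% identical. TGACG, the core of the X2 box, occurred in B2m, H2-K1, H2-D1, Tap1 and Psmb9 and in 17.9% of all windows, and the Y box letters CCAAT in those 5 genes, H2-T23 and Tapbp and in 34.5% of all windows. The Tap1 and Psmb9 windows share 225 bases of the same DNA, read in opposite directions. Their TGACG matches are the same site, and so are their CCAAT matches. CpG pairs, the sites that maintenance methylation copies, numbered 9 in the H2-K1 window, 14 in H2-D1, 8 in B2m, 5 in H2-T23 and 10 in Tapbp, where the median window held 6.

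The genes of peptide transport were low in every library, and tapasin overlapped between the groups. Tap1, a chain of the transporter, had 0.0533 and 0.0835 RPKM in the controls and 0.450 and 0.399 in the knockouts. That is a 6.21-fold ratio of means resting on about 6 and 21 steps in the controls against 97 and 37 in the knockouts. Tap2, the partner chain, had 0.0509 and 0.0493 RPKM in the controls and 0.247 and 0.272 in the knockouts, a 5.19-fold ratio. Both failed the filter. In the fit without a filter their log2 fold changes were 0.41 (SE 0.030) and 0.26 (SE 0.013), with a limma adjusted p of 0.022 each. Without control replicate 1 the adjusted p of both was 0.16, and without control replicate 2 it was 0.15. Tap1 and Psmb9 are read in opposite directions from starts 226 bases apart and the libraries carry no strand, so reads near their starts cannot be assigned to either gene by strand.

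Tapbp, which bridges TAP and the empty heavy chain, measured 12.8 and 13.5 RPKM in the controls and 12.3 and 14.1 in the knockouts. The knockout values lay on both sides of the controls. The log2 fold change was 0.00 with a 95% interval of -0.26 to 0.27 (limma adjusted p = 0.99), though scaling to an equal sum gave 0.39 and a call of higher (0.022). Part of its row is ambiguous too, since 23.2% of its 50-base stretches occur in another annotated gene. Of 20 other genes of class I loading and peptide supply, 16 were tested, of which 7 were called higher, 2 lower and 7 not called. Those counts stand beside 43.3% higher and 30.5% lower among all tested genes. The median log2 fold change of the 16 was 0.25 against 0.14 for all tested genes. The higher ones were Psme1 and Psme2, the interferon-responsive proteasome activator, with Psme3, Psmb10, Sec61a1 of the translocation channel, the chaperone gene Canx and the X-linked gene Bcap31. Psme1 rose from 1.86 ± 0.605 to 5.37 ± 0.309 RPKM and Bcap31 from 0.494 ± 0.0737 to 1.57 ± 0.0987, the latter reaching the filter in the knockouts alone, as did Psme2. The calls of Psme3 and Canx ended without control replicate 1 (adjusted p = 0.12 and 0.077), without control replicate 2 (0.12 and 0.11) and with equal medians (0.11 each). That of Psme2 ended without control replicate 1 (0.057), with no filter (0.0501) and with quantile normalization (0.085). The peptidase genes Thop1, which degrades cytosolic peptides, and Npepps were lower. For Npepps the call ended without control replicate 1 (0.22), control replicate 2 (0.19) or knockout replicate 2 (0.088) and with no filter (0.059), and the direction turned with an equal RPKM sum (log2 fold change 0.040). Thop1 went down from 24.7 ± 1.21 to 13.3 ± 0.994 RPKM, with a log2 fold change of -0.84 (adjusted p = 0.0019, limma). The most abundant genes of this list were the chaperones Hspa5, at 200.5 ± 12.5 and 258 ± 27.1 RPKM, and Calr, at 177 ± 0.374 and 185 ± 9.37. Neither was called as deposited (adjusted p = 0.082 and 0.68). Hspa5 was called higher without knockout replicate 1 (0.049), without knockout replicate 2 (0.011) and with no trend (0.031), and scaling to an equal RPKM sum called both higher (0.0029 and 0.011), as did quantile normalization (0.0018 each). For Calr the direction turned with equal medians (-0.13).

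The inducible subunits Psmb8 and Psmb9 stayed near the lower limit of these libraries while the constitutive subunits Psmb5 and Psmb6 were abundant and fell. Psmb8, the chymotrypsin-like immunoproteasome subunit, had 0.0526 and 0.119 RPKM in the controls and 0.283 and 0.191 in the knockouts, on about 2, 10, 21 and 6 steps. Psmb9 had 0.0584 and 0.0968 RPKM in the controls and 0.108 and 0.280 in the knockouts, on about 4, 13, 13 and 14 steps. For both genes the lower knockout value lay above the higher control value. Without a filter neither was called (limma adjusted p = 0.11 for Psmb8 and 0.33 for Psmb9), with 95% intervals of the log2 fold change from -0.01 to 0.38 and from -0.16 to 0.45.

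Psmb5, the constitutive subunit that Psmb8 replaces, measured 16.8 and 19.96 RPKM in the controls and 10.23 and 9.17 in the knockouts, a log2 fold change of -0.85 (limma adjusted p = 0.0026). Psmb6, which Psmb9 replaces, measured 42.2 and 43.6 RPKM in the controls and 25.8 and 25.04 in the knockouts, a log2 fold change of -0.73 (limma adjusted p = 0.0022), and its call ended with quantile normalization (0.091). Psmb8 thus stood at 0.313% and 0.596% of Psmb5 in the controls and at 2.77% and 2.08% in the knockouts, on the RPKM scale per gene span. Psmb9 stood at 0.138% and 0.222% of Psmb6 in the controls and 0.419% and 1.12% in the knockouts. The within-library difference of log2(RPKM + 1) was higher in the knockouts by 1.04 for Psmb8 minus Psmb5 and by 0.88 for Psmb9 minus Psmb6. Each gave p = 0.33 in a two-sided exact permutation test, the smallest value that 2 against 2 libraries can give. On this scale Psmb8 itself differed by 0.19 and Psmb9 by 0.14, beside -0.85 for Psmb5 and -0.73 for Psmb6. With this pseudocount of 1, most of each difference was thus the fall of the constitutive subunit. With a pseudocount of 0.1 Psmb8 itself differed by 0.87 and Psmb9 by 0.67, so the share of each subunit depends on the scale. Psmb10, the remaining inducible subunit, rose from 2.05 ± 0.353 to 3.35 ± 0.569 RPKM (log2 fold change 0.51, limma adjusted p = 0.019). That call ended without control replicate 1 (0.094), without knockout replicate 2 (0.068), with no filter (0.096), with equal medians (0.067) and with quantile normalization (0.091). Its counterpart Psmb7 was at 2.06 ± 0.0932 and 1.73 ± 0.00692 RPKM and was not called as deposited (limma adjusted p = 0.091), was called lower with equal medians (0.0078) and quantile normalization (0.0063), and turned to 0.11 on the log2 scale with an equal RPKM sum. Psmb10 stood at 90.03% and 108% of Psmb7 in the controls and at 169.8% and 217% in the knockouts, per gene span. The spans were 2665 bases for Psmb10 and 55907 for Psmb7, of which exons cover 1705 and 3421. Psmb10 rested on about 56 and 157 steps in the controls and 175 and 96 in the knockouts. Psmb7 rested on about 1300 and 3050, and 2160 and 931. These percentages therefore compare libraries and do not show that Psmb10 RNA matched or exceeded that of Psmb7.

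**Figure D2:**
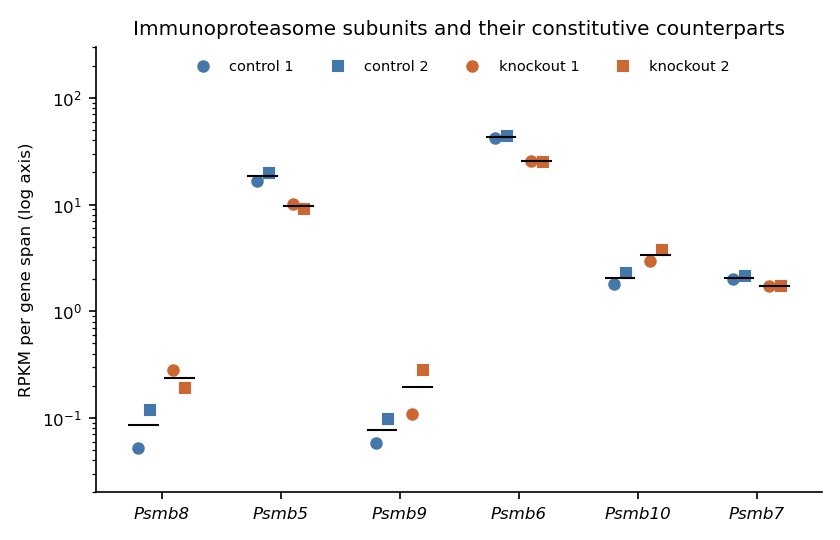
RPKM per gene span (log axis) of the inducible subunits Psmb8, Psmb9 and Psmb10, each beside the constitutive subunit it replaces, in each library, with bars for group means. Psmb8 and Psmb9 lie at or under 0.283 RPKM in all 4 libraries, Psmb5 and Psmb6 lie lower in the knockouts than in the controls, and Psmb10 lies at 90.03% and 108% of Psmb7 in the controls and above it in both knockouts. Psmb10 and Psmb7 values are divided by spans of 2665 and 55907 bases, so their heights do not compare RNA amounts between the 2 genes.

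Cd74, the chaperone of class II chains and a receptor for the cytokine MIF, had 0.0292 and 0.0599 RPKM in the controls and 0.287 and 0.195 in the knockouts. The knockout values were higher, on about 56 and 17 steps against 3 and 14. The gene failed the filter, and without one its log2 fold change was 0.25 (SE 0.049, limma adjusted p = 0.046), a call that ended under 7 of 12 alternatives, among them the fits without control replicate 1 (0.20), control replicate 2 (0.18) and knockout replicate 1 (0.067). The class II chains themselves were scarce or lower. H2-Aa was at 0 and 0.0232 RPKM in the controls and 0.105 and 0.0412 in the knockouts, and H2-Eb1 was at 0.192 RPKM or less in every library. H2-Ab1 fell from 2.21 ± 0.0341 to 1.68 ± 0.123 RPKM (limma adjusted p = 0.026), and H2-DMb1, of the peptide exchange factor, from 2.18 ± 0.0991 to 0.595 ± 0.199 (limma adjusted p = 0.0015). H2-DMb1 was below 1 RPKM in both knockouts and so reached the filter in the controls alone. Without a filter it was also called lower (limma adjusted p = 0.025). The H2-Ab1 call ended without control replicate 1 (0.17), control replicate 2 (0.14) or knockout replicate 2 (0.058), and with an equal RPKM sum its log2 fold change was 0.010. In the list of class II genes and helpers, 8 of 21 in the table were tested, 6 were called higher and 2 lower. Of all tested genes, 43.3% were called higher and 30.5% lower. The 6 were Mif, the lysosomal protease genes Ctsl, Ctsd, Ctsb and Lgmn, and the lysosomal thiol reductase gene Ifi30, which many cell types express. Lgmn was below 1 RPKM in both controls and so reached the filter in the knockouts alone. Mif rose 2.07-fold, from 23.1 ± 2.32 to 47.9 ± 1.42 RPKM, Ctsl 2.84-fold and Ctsb 3.02-fold.

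Other class I genes held lower levels than H2-K1 and H2-D1 on the same RPKM scale. Of 31 listed, 6 passed the filter, 5 were called higher and H2-Q7 was not called (adjusted p = 0.54), while without the filter 11 were higher and 1 lower. Among all genes 43.3% were called higher and 30.5% lower with the filter, and 27.8% and 12.8% without it. The 5 were H2-Q10, H2-T22, H2-T9, Hfe, a class I relative that controls iron uptake, and Fcgrt, the neonatal Fc receptor chain. H2-Q10 rose from 0.953 ± 0.260 to 2.53 ± 0.178 RPKM and Fcgrt from 0.635 ± 0.0760 to 1.501 ± 0.133. Of the 50-base stretches of H2-K1, 5.18% also occurred in H2-Q10, the largest share with any single gene. Reads of the far more abundant H2-K1 may therefore be counted in H2-Q10, which was not tested. H2-T22 had 0.320 and 0.309 RPKM in the controls and 1.19 and 1.09 in the knockouts, and H2-T9 held almost the same 4 values, so the pair are not separate measurements. Apart from H2-Q10 the genes called higher were below 1 RPKM in both controls. Of the 31, 8, among them H2-M2 and H2-M9, were listed at 0 in every library.

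The regulators of these genes differed in level and direction. Nlrc5, the class I transactivator, was at 0.0110 and 0.0114 RPKM in the controls and 0.00823 and 0.00948 in the knockouts, over a span of 92938 bases. Ciita, the class II transactivator, was at 0.0115 RPKM or less in every library. The X box factor genes Rfx5, Rfxap and Rfxank were at 8.10 ± 1.11, 12.8 ± 0.00719 and 3.06 ± 0.236 RPKM in the controls, of which Rfxap alone was called, lower (log2 fold change -0.26, limma adjusted p = 0.044), and its direction turned when libraries were scaled to an equal sum (0.13, 0.22). The Rfxap call also ended without control replicate 1 (adjusted p = 0.23), control replicate 2 (0.23) or knockout replicate 2 (0.058) and with quantile normalization (0.64). Rfx5, not called as deposited (0.059), was called lower with equal medians (0.016), and Rfxank was called higher with an equal RPKM sum (0.025). Of the 15 transactivator genes 7 were tested, with 4 called higher and 1 lower, and a median log2 fold change of 0.32. For all tested genes the shares were 43.3% higher and 30.5% lower, with a median of 0.14. Rela, a subunit of NF-kappaB, rose from 5.98 ± 0.0921 to 9.41 ± 0.454 RPKM, and Ctcf rose 1.94-fold. The others called higher were Nfya and Nfyb. Of 15 interferon gamma signalling genes 5 were tested, and 4 were called higher, Irf9, Ifngr2, Jak1 and Ifngr1, while Socs1, a feedback inhibitor, was not called (limma adjusted p = 0.81). Irf9 rose from 1.03 ± 0.244 to 4.17 ± 0.350 RPKM, 4.06-fold, and Ifngr2 2.75-fold. Jak1 and Ifngr1 were below 1 RPKM in both controls. The calls of Nfya, Nfyb and Ifngr1 ended with equal medians (adjusted p = 0.16, 0.22 and 0.059), with quantile normalization and without control replicate 2 (0.13, 0.15 and 0.085). Those of Nfya and Nfyb also ended without control replicate 1 (0.052 and 0.064), and that of Nfya without knockout replicate 2 (0.055) and with no filter (0.056). Irf1, below the filter, was at 0.206 and 0.253 RPKM in the controls and 0.819 and 0.682 in the knockouts, with a log2 fold change of 0.51 in the fit without a filter (limma adjusted p = 0.026), a call that ended without control replicate 1 (0.17), without control replicate 2 (0.16) and with quantile normalization (0.067). The gene for interferon gamma itself, Ifng, was listed at 0 in 3 libraries and at 0.0427 RPKM in knockout replicate 2.

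**Figure D3:**
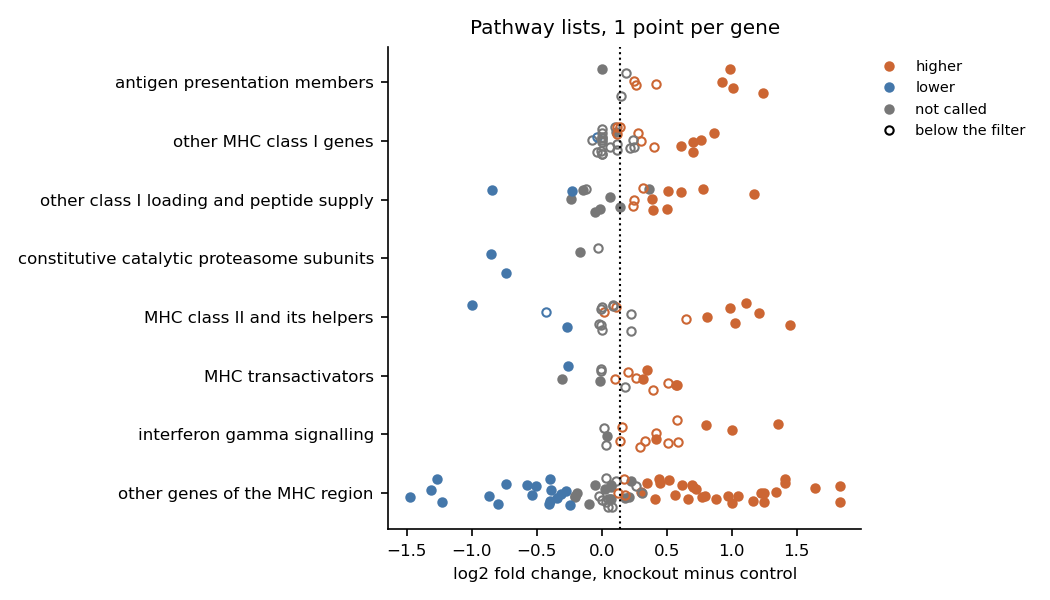
Log2 fold change (knockout minus control, log2(RPKM + 1) scale) of every gene of the pathway lists, with 1 point per gene, filled where the gene passed the filter and open where the value comes from the fit without a filter, coloured by call. The dotted line is the median of tested genes, 0.14, and the 2 constitutive proteasome subunits called lower sit at -0.85 and -0.73.

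Of the 10 members, 8 lie in the MHC on chromosome 17, with B2m on chromosome 2 and Cd74 on chromosome 18. Other genes of the MHC region moved both ways. Of the 72 measured ones 57 were tested, and 28 were called higher, 18 lower and 11 not called. Those counts stand beside 43.3% higher and 30.5% lower among all tested genes. Of the 28, 4 were below 1 RPKM in both controls and so reached the filter in the knockouts alone. The median log2 fold change of the 57 was 0.23 against 0.14 for all tested genes. Csnk2b, a casein kinase subunit, fell from 87.4 ± 1.22 to 31.1 ± 6.15 RPKM, while Pbx2, a homeobox gene, rose from 3.87 ± 0.207 to 10.54 ± 0.651 and Msh5, which acts in meiotic crossovers, from 1.81 ± 0.111 to 4.80 ± 0.275. Among 3029 other genes with a mean of at least 5 RPKM, the profiles nearest to B2m over the 4 libraries were those of Srrm2, Top2a and Tceal8, at Euclidean distances of 0.037, 0.064 and 0.066 between centred log2 values. With 4 libraries such nearness describes the profile and nothing more.

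**Figure D4:**
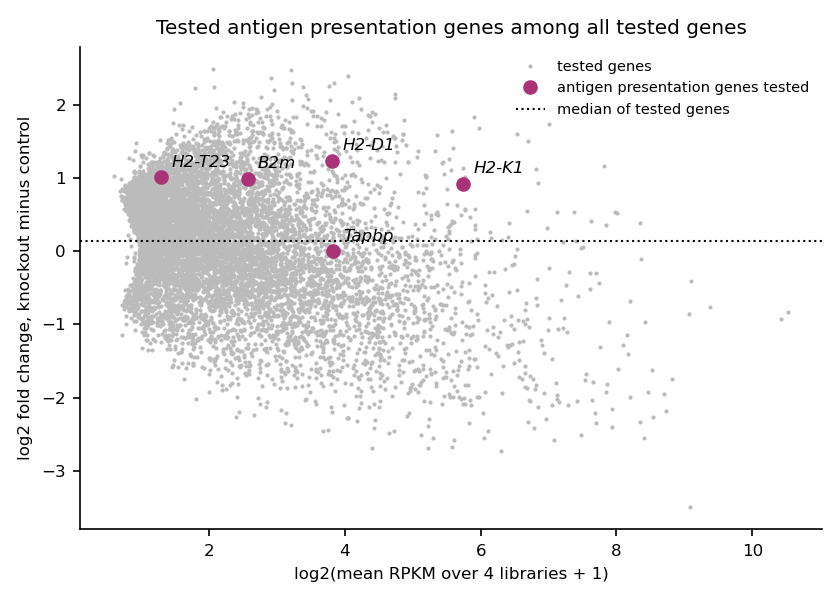
Log2 fold change (knockout minus control) against log2(mean RPKM + 1) for the 9099 tested genes in grey, with the 5 tested antigen presentation genes marked. H2-D1, H2-T23, B2m and H2-K1 lie between 0.92 and 1.24, and Tapbp lies at 0.00, under the median of 0.14.

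Markers of Sertoli, Leydig, myoid and macrophage cells were higher in the knockouts, while sums of lymphoid markers turned on single genes. The counts of called markers stand beside 43.3% higher and 30.5% lower among all tested genes. All 14 tested genes of the Sertoli cell list were called higher, of which 3 were below 1 RPKM in both controls and so reached the filter in the knockouts alone. That list summed to 154 and 182 RPKM in the controls and 442 and 541 in the knockouts. Leydig cell markers summed to 20.4 in each control and 64.9 and 55.8 in the knockouts. Of 7 tested, 6 were called higher, of which Cyp11a1 was below 1 RPKM in both controls. Without a filter 5 of 9 were called higher, beside 27.8% of all genes in that fit. The Star call ended with no filter (limma adjusted p = 0.18), equal medians (0.098) and quantile normalization (0.11). It also ended without control replicate 2 (log2 fold change 0.53) or knockout replicate 2 (0.41). Peritubular myoid markers summed to 4.92 and 4.91 against 10.7 and 12.4, with 2 of 2 higher. Of these, the Tagln call ended with equal medians (limma adjusted p = 0.059) and quantile normalization (0.082). It also ended without control replicate 1 (log2 fold change 0.36). Macrophage markers summed to 11.9 and 12.7 RPKM in the controls and 20.8 and 15.7 in the knockouts. Of 6 tested, 5 were called higher, among them C1qc (1.16 ± 0.122 against 3.52 ± 0.258 RPKM), and Fcgr3 was lower, while Ptprc, the pan-leukocyte marker, was at 0.0116 RPKM or less in every library. Without Fcgr3 the macrophage list summed to 6.46 and 7.53 RPKM in the controls and 18.5 and 14.4 in the knockouts, and 2 of its 5 genes called higher were below 1 RPKM in both controls. Of those 5, the C1qa call ended with no filter (limma adjusted p = 0.16), equal medians (0.073) and quantile normalization (0.11). The C1qa call also ended without control replicate 1 (log2 fold change 0.67) or knockout replicate 1 (0.53). T and NK cell markers summed to 0.807 and 0.710 RPKM in the controls and 0.724 and 0.768 in the knockouts, with Nkg7 at 0 throughout and Cd8a at 0 in both controls. Without Cd3d, the sum of the other 12 was 0.364 and 0.431 in the controls and 0.621 and 0.768 in the knockouts. Dendritic and B cell markers summed to 1.64 and 1.60 in the controls and 1.002 and 0.903 in the knockouts. Pax5 made up most of that sum in the controls, and the other 7 genes summed to 0.313 and 0.427 in the controls and 0.555 and 0.593 in the knockouts, the opposite direction. Endothelial markers summed to 0.446 and 0.298 against 0.584 and 0.734. Red cell markers summed to 63.2 and 72.7 RPKM in the controls and 44.2 and 95.2 in the knockouts, which lay on both sides of the controls. The part of these cells in the values of H2-K1, H2-D1, H2-T23 and B2m was not tested.

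Germ cell markers moved as well, and their counts too stand beside 43.3% higher and 30.5% lower among all tested genes. Pachytene spermatocyte markers, which fit the label of the suspensions, summed to 1264 and 1241 RPKM in the controls and 587 and 465 in the knockouts, with 9 of 11 tested lower and 2 higher. Spermatogonial and early meiotic markers summed to 32.9 and 37.2 in the controls and 95.5 and 97.4 in the knockouts, with 9 of 9 tested higher, 3 of which reached the filter in the knockouts alone. Dissociation and stress genes were higher in 13 of 14 tested, 4 of which reached the filter in the knockouts alone, and in 10 of 17 without a filter, with Egr1 at 1.22 ± 0.158 RPKM in the controls and 8.08 ± 1.91 in the knockouts. Among all genes the share called higher without a filter was 27.8%. Over the same libraries the 10 antigen presentation genes summed to 58.7 and 62.2 RPKM in the controls and 112 and 111 in the knockouts, most of it H2-K1. The part of germ cell stage and of dissociation in these values was not tested either.

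**Figure D5:**
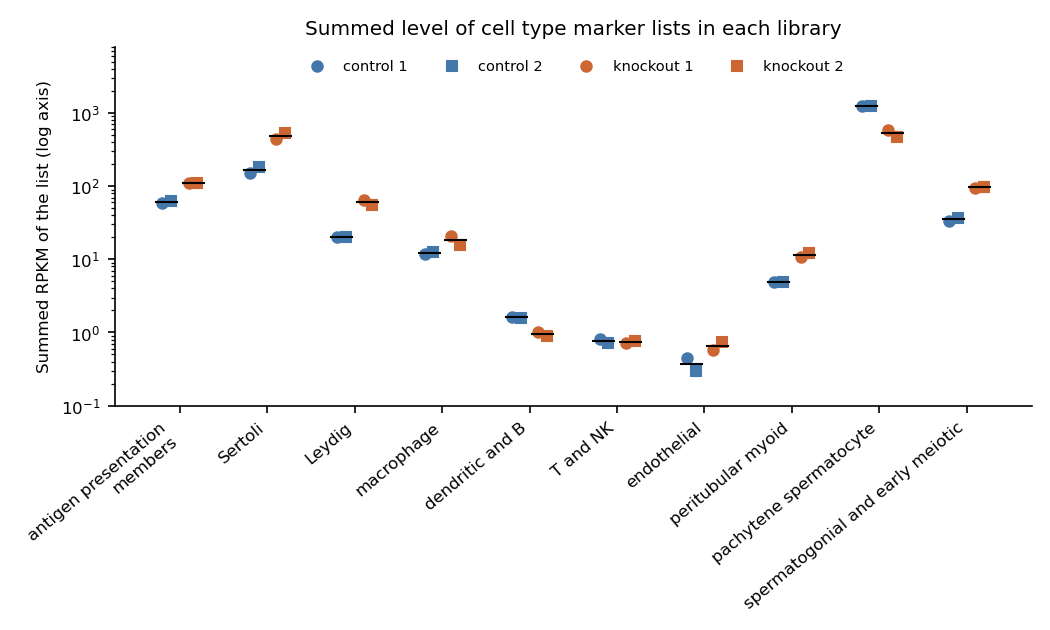
Summed RPKM (log axis) of the antigen presentation genes and of 9 lists of cell type markers in each library, with bars for group means. The antigen presentation genes, Sertoli, Leydig, macrophage, myoid, endothelial and early germ cell lists lie higher in both knockouts, the pachytene list lies lower, the dendritic and B cell list lies lower through Pax5 (0.313 and 0.427 against 0.555 and 0.593 without it), and the T and NK cell list overlaps through Cd3d (0.364 and 0.431 against 0.621 and 0.768 without it).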

How the data were processed

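Poly(A) libraries of 2 control and 2 Np95 knockout samples, grouped by sample title, were read as 50-base pairs, per the labels' protocols. The authors deposited RPKM values in 1 column per library, with 24444 rows, per the file headers. Bowtie2 and mm9 are named in the submitters' processing notes, while the counter and its gene models are not given there. Low values lay within 0.05 of a whole step for 49.3% to 58.7% of genes by gene span and 16.7% to 23.3% by exon length (10% at a fixed step by chance, the step here being the best of a grid), so span was taken as the authors' length. Whole reads were not recovered, and no count test was run. Rows with a date for a symbol (27) and lower rows of a repeated symbol (29) were left out. The test was limma 3.58.1 in R 4.3.3, two-sided and with a trend of variance on level, on log2(RPKM + 1), a scale that understates changes of low genes, after a filter at 1 RPKM in at least 2 libraries. Benjamini-Hochberg adjustment ran over all tested genes at a threshold of 0.05. Members and other genes under the filter were read from a fit of all 24388 symbols. Folds are ratios of mean RPKM.

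The test was checked on simulated data of 9099 genes, in which 100 genes were changed 2-fold and 100 less. How many were recovered depended on the assumed spread between replicates, and 3 models of it were tried in turn. Of the 2-fold changes, 97 were recovered with a robust smooth of the SD (2 false among 143 calls), 1 with a smooth of the variance (0 false among 1 call), and 97 with limma's moderated variance (11 false among 162). The simulation therefore sets no single rate of recovery.

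Alternatives were pseudocounts of 0.1 and 0.5, filters at 5 RPKM and none, equal RPKM sums, equal medians, quantile normalization, no trend, a replicate block, leaving out each library, and summing repeated rows. Some listed genes are not reported here and were left out of the lists. The members, lists and tests were chosen with earlier results of these data known. The naming rule took all members, up to 4 called genes of smallest p and the 2 most abundant per list, and the 3 profiles nearest to B2m. Marker lists are given mainly as sums, and genes outside the rule, with the pair Psmb10 and Psmb7 and the marker sums without Pax5, Cd3d or Fcgr3, were added after their values were seen. Promoter windows came from RefSeq on GRCm38.p6 (8 of 10 members matched), 50-base stretches from GENCODE transcripts, and alignment from Biopython 1.88.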

Additional observations from a re-analysis of the deposited data

How the results depend on the processing

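H2-K1, H2-D1, B2m and H2-T23 stayed called higher under every alternative that tested them (14 for the first 3 and 13 for H2-T23), with a highest adjusted p of 0.024. Psmb8 and Psmb9 were called under none of 12, with adjusted p from 0.055 and 0.064 upwards. The number of members called higher was 7 without a filter, where all 10 entered. Over all genes, 6790 were higher without a filter, 1080 were higher and 1629 lower among genes at 5 RPKM or more, and 1663 were lower with an equal RPKM sum. The cause was not tested, apart from the number of genes entering, which the filters change. With a pseudocount of 0.1 the subunit differences were 1.78 (Psmb8 minus Psmb5), 1.42 (Psmb9 minus Psmb6) and 0.92 (Psmb10 minus Psmb7, 0.68 with a pseudocount of 1), and with 0.5 the first was 1.22. Directions turned as follows, on the log2 scale. With an equal RPKM sum Rfxap was at 0.13 and the globin genes Hbb-b1 and Hbb-b2 at 0.30 and 0.28, H2-Ab1 at 0.010, Npepps at 0.040, Psmb7 at 0.11, Rfx5 at 0.055 and Rfxank at 0.30. With equal medians Tapbp was at -0.19, Psmb9 at -0.013, Calr at -0.13, Socs1 at -0.15, H2-Q7 at -0.082, the endothelial gene Cldn5 at -0.11 and the dendritic cell gene Zbtb46 at -0.045. With quantile normalization Socs1 was at -0.11, H2-Q7 at -0.15, Cldn5 at -0.13, Hbb-b1 at 0.46, Hbb-b2 at 0.24 and Hspa2 at 0.054. With each library left out in turn, Tapbp ranged from -0.087 (without knockout replicate 2) to 0.090, Socs1 from -0.15 (without control replicate 1) to 0.23, Cldn5 from -0.067 (without control replicate 2) to 0.16, H2-Q7 from -0.067 (without knockout replicate 1) to 0.29, Rfxank from -0.071 to 0.047 (without control replicate 2), Hbb-b1 from -0.62 to 0.41 and Hbb-b2 from -0.63 to 0.41 (both highest without knockout replicate 1). Without control replicate 1 Tapbp was at -0.032, and without control replicate 2 Hbb-b2 was at 0.037. Of these, only Rfxap, Hspa2, H2-Ab1, Npepps and Zbtb46 (without a filter) were called as deposited, and only Hbb-b1 (adjusted p = 0.034) and Rfxank (0.025) were called in their turned direction. Of 1259 values of 94 other named genes, 96 lost a call and 16 gained one, turned values included. Same-numbered libraries are not stated to share an animal or batch. With the replicate block 3868 genes were higher and 2721 lower, 4 members were higher, and Tap1 and Tap2 (adjusted p = 0.069 each) and Cd74 (0.12) lost their calls. Deviations of same-numbered libraries from their group means correlated at 0.11 over genes. Psmb8, Psmb9 and Cd74 rest on the fewest steps among the members, with 2, 4 and 3 steps in control replicate 1.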

Other observations

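Pax5, Fcgr3 and Cd3d went against most of the other genes of their lists. Of the 7 dendritic and B cell markers other than Pax5, 6 had a higher mean in the knockouts. So did 15 of the 16 macrophage markers other than Fcgr3 and 9 of the 12 T and NK cell markers other than Cd3d. The T and NK cell list was nonetheless split, with both knockouts below both controls for 3 genes and above them for 3. Over all genes both knockouts lay above both controls for 46.1%. Without a filter 2 dendritic and B cell markers were called lower and 1 higher, beside 12.8% lower and 27.8% higher among all genes. No share over all genes is given here for higher knockout means or for knockouts below controls. Pax5, a B cell transcription factor, was at 1.25 ± 0.108 RPKM in the controls and 0.379 ± 0.0959 in the knockouts, a log2 fold change of -0.71 (limma adjusted p = 0.0019). It reached the filter in the controls alone, and without a filter it was also called lower (limma adjusted p = 0.026). Fcgr3, an Fc receptor of myeloid cells, was at 5.29 ± 0.194 and 1.76 ± 0.757 RPKM, a log2 fold change of -1.22 (limma adjusted p = 0.0037). H2-DMb2, beside H2-DMb1 in the class II region, was at 0.493 and 0.389 RPKM in the controls and 0.127 and 0.0182 in the knockouts, and in the fit without a filter its log2 fold change of -0.43 was called (limma adjusted p = 0.039), a call lost in each of the 4 fits that left out a library (0.065 to 0.18). Cd3d, of the T cell receptor complex, was at 0.443 and 0.279 RPKM in the controls and 0.103 and 0 in the knockouts and was not called (adjusted p = 0.072), while Cd3e of the same complex was at 0.139 and 0.177 against 0.368 and 0.470 RPKM. Cd3e was called higher without a filter (limma adjusted p = 0.037), a call that ended without control replicate 1 (0.19), control replicate 2 (0.17) or knockout replicate 2 (0.069).

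H2-Ab1, the class II beta chain, was at 2.23 and 2.19 RPKM in the controls, whereas its partner chain H2-Aa was at 0 and 0.0232 RPKM in the same libraries. H2-DMb1 was at 2.25 and 2.11 RPKM there, with Cd74 at 0.0292 and 0.0599. These genes were chosen after their values were seen.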
